A study of Caenorhabditis elegans with 2 samples.

Results

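Between neighbouring protein-coding genes that lie on the same strand of an autosome of Caenorhabditis elegans, 545 of the 5692 peaks of eGFP-tagged C34F6.9 had their summit. These are 9.58% of all peaks and 11.6% of the 4715 autosomal peaks in the optimal list, which the authors cut by a threshold on reproducibility. Not every peak in it has a summit of each replicate nearby, as given below. A peak was taken where its summit, the position of highest signal, lay in a gap of at most 1000 bp between the 3′ end of a coding gene and the 5′ end of the next coding gene on that strand (a tandem gap). Summits with coding 5′ ends on both strands within 500 bp were left out, which removed 26. Within the optimal list the choice used positions and gene annotation only, and no signal. The list itself has a signal limit, as it equals the 5692 pooled peaks with the highest signal. It does not separate operons from tandem genes with promoters of their own, since the annotation used here does not mark operons.

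Chromatin immunoprecipitation with sequencing (ChIP-seq) enriches DNA that a protein lies on, here by way of the green fluorescent tag. There was 1 group with 2 biological replicates: whole second-stage larvae (L2), of pooled sex and unknown age, of strain OP324. This strain carries the mutation unc-119(ed3) on chromosome III and the transgene wgIs324, from which tagged C34F6.9 is made. Whole animals were used, so a peak can come from any tissue, and a tagged transgene need not match the level of the gene's own product.

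Many neighbouring genes of C. elegans belong to operons, in which a single promoter ahead of the first gene makes one long RNA for several genes. That RNA is cut into messenger RNAs for each gene by cleavage at the 3′ end of one gene and trans-splicing of a short leader to the next. Genes inside an operon mostly receive the leader SL2, and the gaps between them are short. Genes of basic cell functions, such as translation and RNA processing, are common in operons. A tandem gap can also hold the promoter of its downstream gene, either a single gene or the first gene of an operon.

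The sequences around the highest summits on chromosomes II to V, and 4 further ones, show what such a gap looks like. All are in ce11, read 5′ to 3′ on the strand of the genes from the RefSeq copy of the assembly. Gaps of up to 300 bp are printed whole, and otherwise the bases within 75 bp of the summit, which is then base 76. Capitals mark the word GACGCA, the word GGCGCA, the repeat GAGAGA and the longer word GAGACGCAG on either strand, which are counted over all members further on. The first 6 are the highest by signal. The other 4 were chosen after their values were seen, because they hold GAGACGCAG. The first is II:10563484-10563634 on the minus strand, before cdc-48.1. The second is III:3867506-3867656 on the plus strand, before rpl-3. The gap before his-37 is V:9546842-9547104 on the plus strand, with the summit at base 162. The window before eelo-2 is IV:17249824-17249974 on the plus strand, that before tos-1 is V:9344298-9344448 on the minus strand, and that before fust-1 is II:7152094-7152244 on the plus strand. The gap before C34C12.8 is III:3460112-3460405 on the plus strand with the summit at base 142. The windows before ruvb-2 and baf-1 are IV:6919455-6919605 on the minus strand and III:9467227-9467377 on the plus strand. The gap before Y39B6A.43 is V:18967830-18967904 on the minus strand, with the summit at base 71.
C06A1.6 to cdc-48.1: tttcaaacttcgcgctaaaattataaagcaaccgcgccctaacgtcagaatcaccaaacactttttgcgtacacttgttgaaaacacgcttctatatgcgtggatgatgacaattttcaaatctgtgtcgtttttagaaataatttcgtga
acs-19 to rpl-3: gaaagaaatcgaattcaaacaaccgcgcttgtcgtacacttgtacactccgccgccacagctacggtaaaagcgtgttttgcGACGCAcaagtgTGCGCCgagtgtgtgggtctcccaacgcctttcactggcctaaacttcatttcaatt
C50F4.6 to his-37: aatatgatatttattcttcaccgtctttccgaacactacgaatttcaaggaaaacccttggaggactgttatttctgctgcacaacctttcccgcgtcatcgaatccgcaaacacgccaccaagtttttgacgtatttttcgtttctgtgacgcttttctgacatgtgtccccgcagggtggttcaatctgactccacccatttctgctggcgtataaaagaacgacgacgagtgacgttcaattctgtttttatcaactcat
ZK550.2 to eelo-2: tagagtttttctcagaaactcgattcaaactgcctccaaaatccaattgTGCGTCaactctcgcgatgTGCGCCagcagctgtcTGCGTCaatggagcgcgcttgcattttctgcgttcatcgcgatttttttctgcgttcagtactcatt
K07B1.7 to tos-1: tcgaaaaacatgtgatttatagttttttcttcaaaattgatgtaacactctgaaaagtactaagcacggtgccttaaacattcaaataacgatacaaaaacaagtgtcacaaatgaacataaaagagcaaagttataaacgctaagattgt
T07F8.1 to fust-1: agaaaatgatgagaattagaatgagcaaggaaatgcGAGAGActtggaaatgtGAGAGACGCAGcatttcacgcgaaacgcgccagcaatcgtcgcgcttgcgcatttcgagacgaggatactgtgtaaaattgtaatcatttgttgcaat
C34C12.2 to C34C12.8: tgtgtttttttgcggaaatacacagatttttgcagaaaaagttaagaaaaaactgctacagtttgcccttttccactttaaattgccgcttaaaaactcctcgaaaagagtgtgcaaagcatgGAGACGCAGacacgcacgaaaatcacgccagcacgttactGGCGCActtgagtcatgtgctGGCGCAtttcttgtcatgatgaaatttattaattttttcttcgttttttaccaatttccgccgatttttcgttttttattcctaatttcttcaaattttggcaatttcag
T22D1.18 to ruvb-2: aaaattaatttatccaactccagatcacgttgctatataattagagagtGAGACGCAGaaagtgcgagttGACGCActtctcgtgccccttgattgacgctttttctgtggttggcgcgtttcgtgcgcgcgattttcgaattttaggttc
B0464.9 to baf-1: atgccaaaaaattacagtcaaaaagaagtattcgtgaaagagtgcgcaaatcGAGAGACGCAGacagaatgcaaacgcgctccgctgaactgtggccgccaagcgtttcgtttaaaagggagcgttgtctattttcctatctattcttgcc
Y39B6A.42 to Y39B6A.43: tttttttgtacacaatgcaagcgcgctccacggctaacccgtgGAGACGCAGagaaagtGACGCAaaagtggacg

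The sequences before cdc-48.1, his-37 and tos-1, which rank 1, 8 and 29 in the optimal list, hold none of the 4 words in the letters shown. The window before eelo-2 holds GACGCA on the opposite strand at 2 places and GGCGCA once. In the gap before C34C12.8 the summit lies between GAGACGCAG and 2 copies of GGCGCA, and the gap ends in TTTCAG, the letters at which worm introns and trans-spliced leaders commonly join. These are descriptions of letters, and no binding site was mapped.

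The members lay in 535 of the 5188 autosomal tandem gaps, which is 10.3% (95% Wilson interval 9.51 to 11.2%). Such intervals cover counting error only. With the 5692 highest-signal peaks of each replicate on its own, the share was 10.02% in replicate 1 and 9.77% in replicate 2. The plus strand held 274 members and the minus strand 271. On 10 gaps there were 2 members each, counted by summit. By chromosome, 14.9% of the tandem gaps of chromosome I held a member, 12.7% of those of III, 11.4% of those of II, 9.71% of those of IV and 6.06% of those of V. Chromosome V had the lowest share and, with 1552, the most tandem gaps.

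Short gaps, the spacing typical inside operons, seldom held a summit. Of the 776 gaps of 1 to 100 bp, 7 did (0.902%), and of the 980 gaps over 100 and up to 200 bp, 41 did (4.18%). The share was highest in gaps over 200 and up to 400 bp, with 179 of 1081 (16.6%, interval 14.5 to 18.9%). In the further steps of 200 bp, it was 15.2% up to 600 bp, 11.8% up to 800 bp and 11.7% up to 1000 bp. With all 30000 pooled regions in place of the optimal list, these classes over 200 bp had 24.8%, 27.7%, 25.3% and 24.65%, without the fall, while gaps of up to 100 bp had 4.51% and those up to 200 bp 10.7%. The pooled regions are labelled as peaks and background, so these shares are not all of peaks. A short gap has less room for a summit, so the summits were also counted per length: there were 0.126 per kb in gaps up to 100 bp, 0.312 per kb in those up to 200 bp and 0.551 per kb in those up to 400 bp. Beyond that the density fell to 0.139 per kb in the longest gaps. Counting any summit within 500 bp before the downstream 5′ end, whether or not it lay in the gap, gave 2.45% of the genes after gaps up to 100 bp, 5.71% after those up to 200 bp and 17.1% after those up to 400 bp. Genes after short gaps thus also had few summits further upstream, beyond the gap.

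The orientation of the genes that flank a gap separated the shares further. Among gaps of up to 1000 bp with no coding gene of either strand between, 528 of 5034 tandem gaps held a summit (10.5%), against 658 of 1639 divergent gaps (40.1%), which lie between the 5′ ends of genes pointing apart. Of 1569 convergent gaps, between the 3′ ends of facing genes, 19 held one (1.21%). The means over the 2 replicates were 10.1% ± 0.225, 39.8% ± 0.820 and 1.21% ± 0 (SD, n = 2). In gaps of 200 to 400 bp the tandem share was 16.8% (interval 14.65 to 19.1%) and the divergent share 50.2% (45.6 to 54.8%). The 3 orientations kept this order in every class of length and in each replicate, and no test was made. A divergent gap holds 2 coding 5′ ends and a tandem gap 1.

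**Figure D1:**
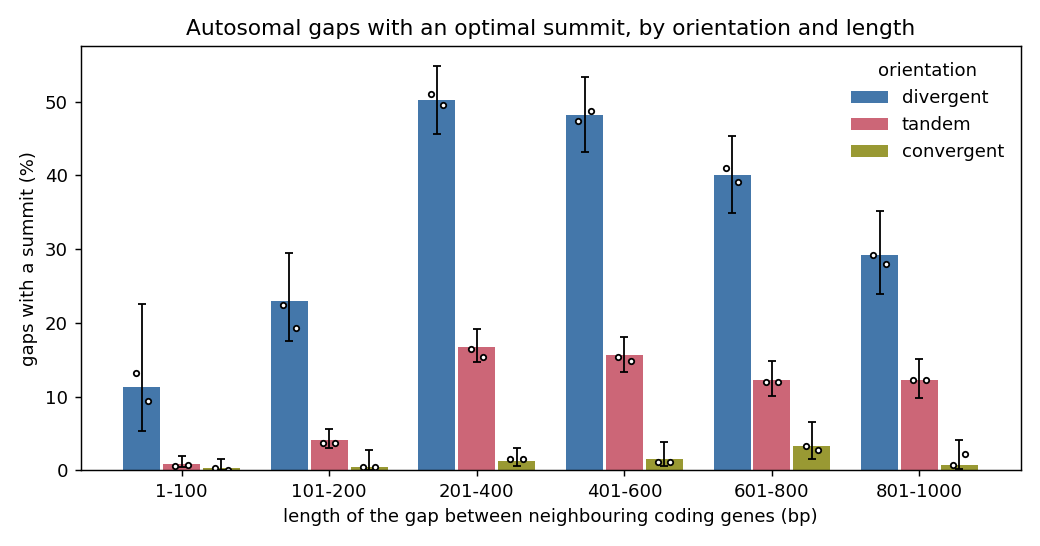
Percent of autosomal gaps with an optimal summit (vertical axis) by length of the gap in bp (horizontal axis), for divergent, tandem and convergent neighbours. Bars are the optimal list, lines are 95% Wilson intervals (counting error only) and circles are the 2 replicates; in the class up to 400 bp the divergent bar stands at 50.2% and the tandem bar at 16.8%.

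The shares also differed by what followed the downstream gene. In 338 of the gaps over 200 bp, the downstream gene was followed, on the same strand and with no gene of the other strand between, by a gap of 200 bp or less. Such a wide gap ahead of closely spaced genes has the layout of the start of an operon. It held a member in 131 cases (38.8%, interval 33.7 to 44.1%), against 350 of the 2960 other gaps over 200 bp that no coding gene of the opposite strand overlaps (11.8%, 10.7 to 13.0%). A further 134 gaps over 200 bp, 6 of them with a member, overlap such a gene and enter neither count. The replicates gave 37.6% and 37.3% for the former and 11.7% and 11.2% for the latter. Both replicates were counted over the same gaps, so their closeness does not measure the variation between gaps. No test was made, and this split was chosen after the data were seen.

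**Figure D2:**
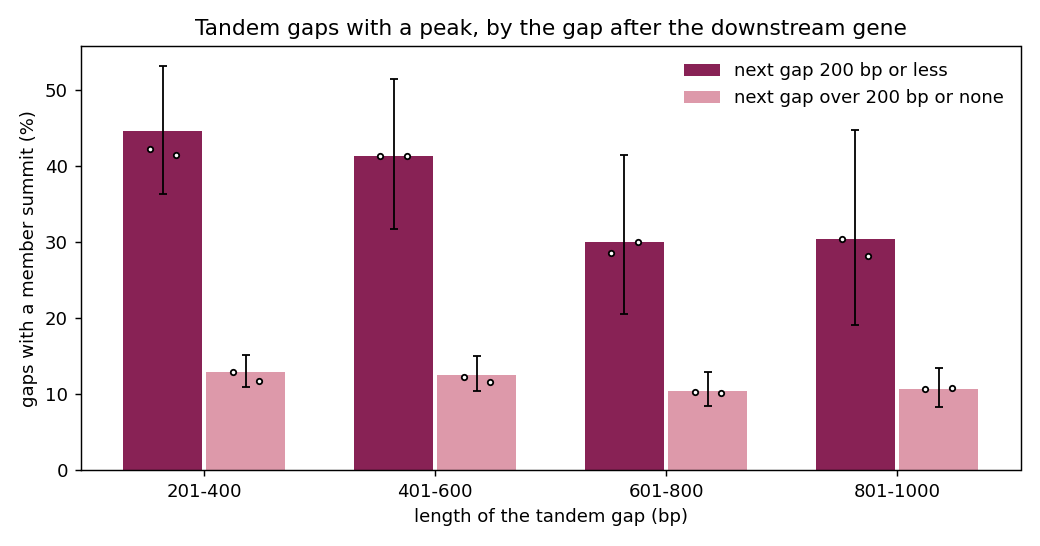
Percent of tandem gaps with a member summit (vertical axis) by length of the gap in bp (horizontal axis), for gaps whose downstream gene is followed by a gap of 200 bp or less (dark) and the 2960 others (light), without the gaps that overlap a coding gene of the opposite strand. Lines are 95% Wilson intervals and circles the 2 replicates; the dark bars run from 30% to 44.6% and the light ones from 10.5% to 12.9%.

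The contrast was present at each length of gap. In gaps up to 400 bp the shares were 44.6% and 12.9%, up to 600 bp 41.3% and 12.5%, up to 800 bp 30% and 10.5%, and up to 1000 bp 30.4% and 10.6%. It was present on each autosome too. The smallest ratio was on chromosome I, with 40.3% against 20.7%, and chromosome V had the lowest shares, with 24.3% against 6.46%. A close gene behind the gap, that is a preceding gap of 200 bp or less, went with less: 49 of 276 such gaps without a close next gene held a member (17.8%, interval 13.7 to 22.7%), against 301 of 2684 with neither (11.2%, 10.1 to 12.5%). With 1 close gap following, the share was 37.3%, with 2 it was 41.5%, and with 3 or more it was 8 of 14 gaps (57.1%, 32.6 to 78.6%). These last intervals overlap.

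The highest of the peaks ahead of a close pair lay before fust-1, eif-3.C and dnj-9. The gap of 705 bp between T07F8.1 and fust-1 had signal 714 and rank 31 of 5692, and the next gene, C27H5.2, starts after 104 bp. The replicates put this peak at ranks 49 and 17, with signals of 373 and 341. Between sys-1 and eif-3.C, a subunit of a translation initiation factor, the rank was 71, with 53 and 119 in the replicates. The gap of 394 bp before dnj-9, a J-domain co-chaperone, ranked 136 and is followed by F11G11.5 at 102 bp.

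Further down the same set came ddp-1, of the import machinery of the inner mitochondrial membrane, with ttc-7 only 47 bp behind it, at rank 164. C34C12.8 and the phosphatase gene pph-6 followed at rank 207, and snrp-3, a splicing gene by its name, with pole-2 at rank 236. At rank 239 the summit lay 41 bp before wdr-23, a regulator of the stress factor SKN-1, with aex-1 at 85 bp. At rank 267 it lay before sqd-1, with lsm-8 next. Over all 134 members of this kind the median signal percentile in the optimal list was 66.0 (quartiles 48.0 to 82.0), and over the 363 other members in gaps over 200 bp it was 60.2 (33.4 to 80.8). These ranges overlap over most of their width.

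Within runs of tandem genes, the widest gap of the run held a member in 211 of 1109 cases (19.0%) and the other gaps in 127 of 1815 (6.997%). Of first gaps 13.7% held one, and of later gaps 10.3%, so position in the run separated them less than width. In 39 runs more than 1 gap held a member, and in 3 runs there were 3. One is the series of genes from pat-6 to rcat-1 on chromosome IV, with members in 3 of its 4 gaps, of 202, 199 and 536 bp. Another runs from sgo-1 to rpap-3 on IV, where 3 successive gaps, on both sides of rsp-6, a splicing factor of the SR family, and after imp-3, held one and the close gaps behind them did not. The last runs from nstp-8 through 7 genes for nuclear hormone receptors to cyp-33C4 on V.

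The signal of a peak is the authors' value relative to a control and has no meaning across lists, so it is given as a rank or percentile in its list. The members' median percentile was 61.8 (quartiles 36.9 to 80.9), where the whole optimal list has 50. The 624 autosomal peaks with coding 5′ ends on both strands within 500 bp had a median of 71.7, and the 1394 with an end on 1 strand but outside tandem gaps had 55.1. In the 30000 regions of replicates 1 and 2, the members' median percentiles were 93.03 and 91.52. The class with ends on both strands had 94.99 and 93.99 there, the 1-strand class 91.62 and 91.37, and all optimal peaks 90.67 and 90.61. Members and the 1-strand class were thus close in replicate 2. Of the members 80 (14.7%) were among the 569 highest peaks of the list, as were 20.5% and 10.2% of those classes. The 569 lowest peaks held 27 members.

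Most members, like most optimal peaks, were found again in both replicates. The full lists of the replicates hold 30000 regions each, as does the pooled list, which is labelled as peaks and background. A match in them need therefore not be a called peak. In these lists 527 of the 545 (96.7%, interval 94.8 to 97.9%) had a summit of each replicate within 100 bp, and 1 had none in either. The share was 94.4% for all optimal peaks, 95.1% for the autosomal ones and 96.5% for those with 5′ ends on both strands. When only the top 5692 peaks of each replicate were used, 457 (83.9%) had both, against 75.4% of all optimal peaks, 76.9% of the autosomal ones and 89.3% of those with 5′ ends on both strands. The optimal list was made from these replicates, so this is no independent check. Over the 527, the ranks of signal in the 2 replicates had a Spearman correlation of 0.863, as a description. The matched summits lay a median of 9 and 10 bp from the member's summit.

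**Figure D3:**
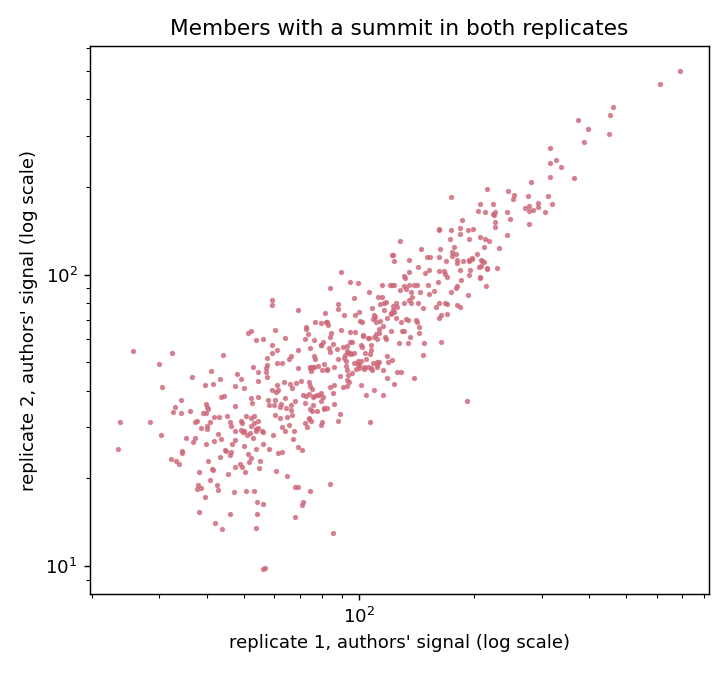
Signal of the 527 matched members in replicate 1 (horizontal axis) and replicate 2 (vertical axis), both the authors' values on log scales that are not shared between lists. Each point is a member; the points run along a band with Spearman correlation 0.863, widest among the low values.

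At the top of the members stood cdc-48.1, an ATPase that extracts proteins from complexes for degradation. Its peak, at rank 1 in the optimal list and in both replicates, had signals of 1189, 692 and 500 in the optimal list, replicate 1 and replicate 2. The summit lay 152 bp before the gene. The peak before rpl-3, a protein of the large ribosomal subunit, ranked 3 in all 3 lists, with signals of 1061, 611 and 450.

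The peak before his-37, a histone H4 gene, ranked 8, and 16 and 9 in the replicates. Histone genes have near-identical copies and how reads with several matches were handled is not known from the labels, so its level is uncertain. The peak between ZK550.2 and eelo-2 ranked 15, with 18 and 15 in the replicates. The peak before bag-1, a co-chaperone of Hsp70, ranked 21, with 19 and 30. The next were tos-1 at 29, fust-1 at 31, egg-5, which acts at the transition from egg to embryo, at 38, and F02E9.5 at 65.

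After eif-3.C at rank 71 came xbp-1, the transcription factor of the unfolded protein response, at rank 74 with 71 and 72 in the replicates. Its summit lay 23 bp before the gene, in the gap of 379 bp that follows the co-chaperone gene dnj-16. F36A2.7, W08E12.7 and icd-2, a subunit of the complex that meets new proteins at the ribosome, held ranks 76, 79 and 93. The other 6 of the 20 highest were the gaps before fbxl-2, pcn-1, the sliding clamp of DNA replication, set-4, a histone H4 methyltransferase, dnj-9, pdhk-2, a kinase of pyruvate dehydrogenase, and dld-1, a subunit of that enzyme and its relatives. Their ranks ran from 116 to 144 in the optimal list, from 77 to 131 in replicate 1 and from 130 to 271 in replicate 2.

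The 5 lowest members stood at ranks 5607 to 5687, before cwc-15, gst-7, Y39C12A.9, Y37E11B.6 and T20D4.11. Their replicates were less even. The peak before cwc-15 had no summit of replicate 1 within 100 bp and rank 4804 in replicate 2, and the peak before Y39C12A.9 ranked 9169 and 5683. At the limit of length, the last gaps inside were 998 bp, before ZK632.9 and Y54F10BM.9 at ranks 1733 and 3071, and 995 bp, before C32D5.8, ets-6 and istr-1 at ranks 1284, 1359 and 2019. The first outside were 1002 bp before pho-11, 1015 bp before T07F8.1 and 1016 bp before vps-37, at ranks 2788, 2209 and 797.

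Gaps ahead of genes of translation often held a member. Of the 24 tandem gaps whose downstream gene is named for a cytosolic ribosomal protein, 18 held a member (75%, interval 55.1 to 88%), where all tandem gaps have 10.3%. Of the 34 gaps that follow such a gene, 4 did (11.8%, 4.67 to 26.6%). The lengths differed as well, with a median of 550 bp ahead of these genes and 113 bp behind them. In gaps over 200 bp the counts were 18 of 20 ahead and 3 of 10 behind, against 487 of 3432 for all (14.2%).

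After rpl-3 the highest were rpl-24.2 at rank 173, rpl-23 at 181 and rps-4 at 298, with replicate ranks of 225 and 159, 137 and 268, and 274 and 370. The gap between rpl-41.1 and rpl-41.2, 2 copies of one ribosomal gene whose reads may not be told apart, ranked 549. Among gaps behind ribosomal genes the highest was that between rpl-27 and egl-30, a G protein subunit, at rank 191.

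Other lists of translation and RNA genes also had a higher share ahead of their genes than behind them. The intervals of the 2 sides overlap for translation factors, splicing genes and tRNA synthetases. For mitochondrial ribosomal genes they are narrowly apart. Ahead of translation factors 6 of 11 gaps held a member (54.5%, interval 28.0 to 78.7%) and behind them 2 of 20. After eif-3.C these were led by eef-1B.2, eif-2gamma and eif-2Bgamma at ranks 1329, 1957 and 2068. For splicing genes the counts were 5 of 14 ahead and 2 of 27 behind, led by snrp-3 and by snr-4, whose product is an Sm protein of the spliceosome, at rank 454. Mitochondrial ribosomal genes had 7 of 34 ahead and 0 of 34 behind (upper bound of the interval 10.2%). Their peaks were lower, from mrps-16 at rank 2095 to mrps-12 at 2660, mrps-18C at 3252 and mrpl-32 at 3524. The last had no summit of replicate 2 within 100 bp. Genes for tRNA synthetases had 3 of 12 and 0 of 11, with vars-1 at rank 1989, fars-3 at 3536 and pars-2 at 3820. In gaps over 200 bp, translation factors had 6 of 8 ahead and 2 of 7 behind, and splicing genes 5 of 7 and 2 of 7. Mitochondrial ribosomal genes had 7 of 14 and 0 of 10 there, and tRNA synthetases 2 of 3 and 0 of 1.

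Chaperones were the other way round: 3 of 13 gaps ahead of them held a member and 10 of 23 behind them (43.5%, interval 25.6 to 63.2%). The highest of the latter were dnj-16, ahead of xbp-1, and hsp-12.3, ahead of F38E11.9. The intervals of the 2 sides overlap. The median gap was 112 bp ahead of chaperones and 260 bp behind them. In gaps over 200 bp the counts were 3 of 6 ahead (50%) and 8 of 13 behind (61.5%). Proteasome genes had 2 of 9 and 5 of 16, and in gaps over 200 bp 2 of 4 and 4 of 8. Both gaps around rpt-1, an ATPase of the proteasome's cap, held members, at rank 688 ahead of it and at 454 and 2726 between it and snr-4, and the gap ahead of rpn-13 ranked 1079. The gap between pbs-2 and the alpha-tubulin gene tba-2 ranked 554. Genes of transcription had 4 of 27 and 1 of 31, with taf-8 at 1268 and rpb-5 at 1478. Those of membrane traffic had 3 of 27 and 2 of 28, led by vps-35 at 2667. The respiratory chain had 1 of 14, cyc-1 at rank 359, and 2 of 13. In gaps over 200 bp transcription had 4 of 9 and 1 of 5, and membrane traffic 2 of 11 and 2 of 12. The respiratory chain had 1 of 3 and 2 of 3 there.

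Gene families of sensing and of the body surface seldom had a member. Of 365 gaps ahead of a chemoreceptor gene 1 did (0.274%, interval 0.0484 to 1.535%), that between cpl-1 and srh-269 at rank 3699. These gaps were not short, with a median of 517 bp. Of the 365 behind one, 9 did (2.47%). Collagens had 0 of 32 ahead (upper bound 10.7%) and 1 of 25 behind, and lectins 1 of 82, clec-126 at rank 1740, and 3 of 69. F-box genes had 6 of 104 and 7 of 104, genes of detoxification 6 of 76 and 4 of 68, and sperm proteins 0 of 6 and 0 of 3. Nuclear hormone receptors lay near the background, with 10 of 73 (13.7%, 7.61 to 23.4%) ahead, led by nhr-49, a regulator of fat metabolism, at rank 373. In F-box, detoxification and receptor families close copies can share reads, which makes single members uncertain.

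**Figure D4:**
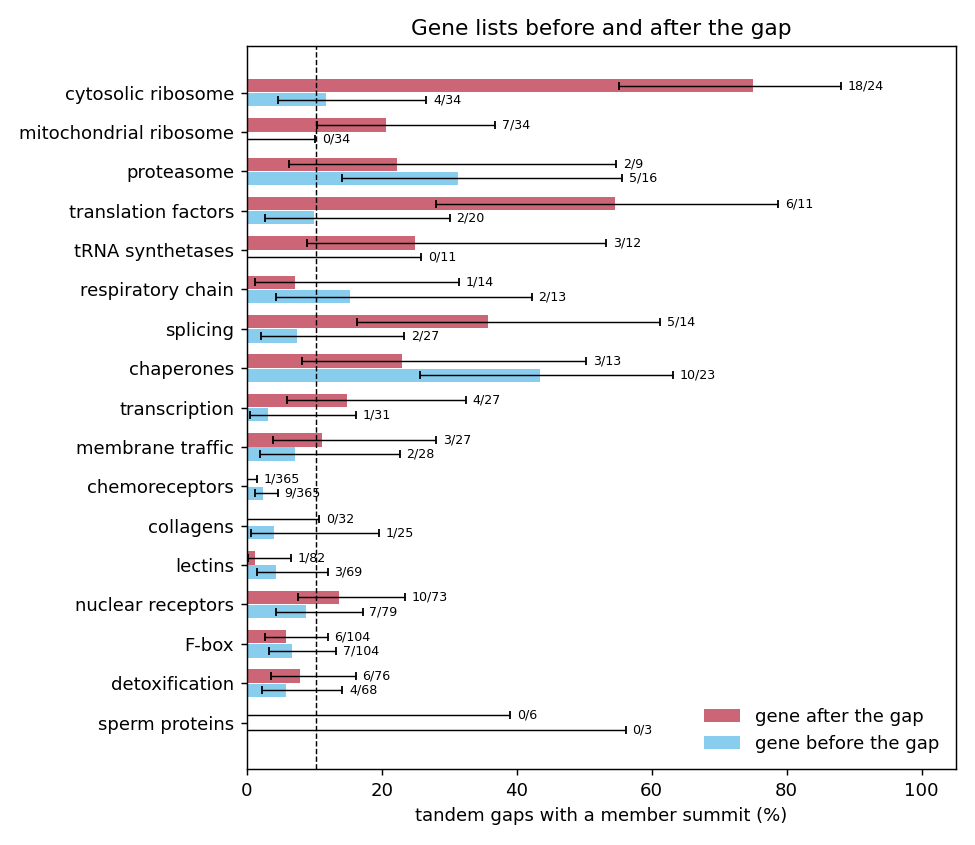
Percent of tandem gaps with a member summit (horizontal axis) where a gene of each list (vertical axis) lies after or before the gap. Lines are 95% Wilson intervals, figures are gaps with a member of all gaps, and the dashed line marks the 10.3% of all tandem gaps; the cytosolic ribosome stands at 75% after the gap and 11.8% before it.

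The contrast between gaps with and without a close next gene was present both inside and outside the lists. Where the downstream gene was in 1 of the lists, 24 of 64 gaps over 200 bp with a close next gene held a member (37.5%) and 47 of 621 others (7.57%). Where it was in none, the counts were 107 of 274 (39.1%) and 303 of 2339 (13.0%).

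The summit lay a median of 174 bp before the 5′ end of the downstream gene (quartiles 108 to 295) and 210 bp after the 3′ end of the upstream gene (116 to 379), in gaps with a median of 467 bp. It was nearer the downstream gene in 298 members (54.7%, interval 50.5 to 58.8%) and nearer the upstream one in 246. This changed with length. In gaps over 200 and up to 400 bp 47.5% were nearer the downstream gene, and in those over 800 bp 65.4% (54.6 to 74.9%). Peaks with a coding 5′ end on 1 strand outside tandem gaps had a median distance of 184.5 bp to it, and no test of the difference was made. The downstream 5′ end lay within 500 bp of 492 members, and no coding 5′ end did for 50. The most frequent width of the peaks was 396 bp, in 353 of them, and 112 peaks covered the whole gap, so in short gaps the summit alone places a peak.

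**Figure D5:**
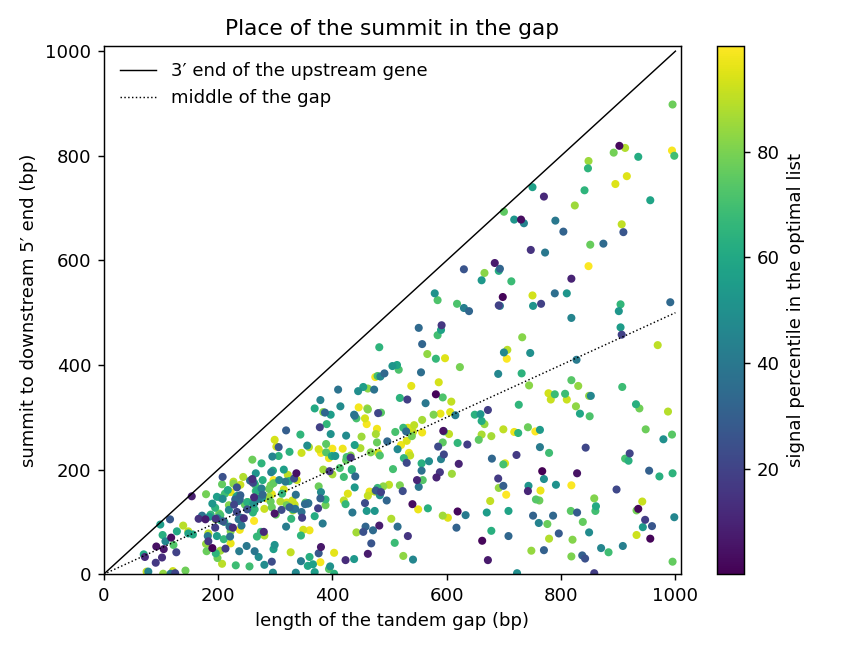
Distance from the summit to the downstream 5′ end in bp (vertical axis) against the length of the tandem gap in bp (horizontal axis), with 1 point for each of the 545 members, coloured by signal percentile. The solid line is the 3′ end of the upstream gene and the dotted line the middle of the gap; the longest gaps have most points below the dotted line (65.4%).

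The 5 shortest gaps with a member were 70 bp between hsp-90 and C47E8.11, 72 bp between K03H1.11 and K03H1.13, 75 bp between Y39B6A.42 and Y39B6A.43, 78 bp between chk-1 and gid-7 and 91 bp between pals-34 and F26D11.12. Only that of 75 bp, printed above, was high, at rank 511 with 352 and 908 in the replicates. The peak before gid-7 ranked 2135 in replicate 1 and 12218 in replicate 2, and that before K03H1.13 had no summit of replicate 2 within 100 bp.

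Of the 10 gaps with 2 members the highest were those before tos-1 (ranks 29 and 1509), egg-5 (38 and 858), F38E11.9 (381 and 2484), snr-4 (454 and 2726) and Y54G11A.2 (540 and 4593). In these 5 gaps the summits lay at most 211 bp apart, and over all 10 gaps at most 673 bp. Both summits before tos-1 lie in the same peak interval, V:9344163-9344695. The 2 intervals before egg-5 both begin at I:4171955 and end at 4172435 and 4172439. Members are summits, so such pairs are not separate peak intervals. Before egg-5, F38E11.9 and snr-4 a gene for a small nuclear RNA lay within 100 bp of both summits. The one before egg-5 is sls-2.4, a gene for the SL2 leader RNA. It has near-identical copies elsewhere, so its level is uncertain.

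Another such leader gene, sls-2.7, lay within 100 bp of the summit between spe-46 and W06D4.3, at rank 3314. In all, 35 members had a non-coding gene within 100 bp of the summit (6.42%, interval 4.65 to 8.80%), against 635 of the 4170 other autosomal peaks (15.2%, 14.2 to 16.4%). Genes of the annotation class ncRNA were near 22 members and 488 of the 4170 others. Small nuclear RNA genes were near 7 members and 12 of the others. Small nucleolar RNA genes were near 7 and 70, and tRNA genes near 3 and 87. The 7 members near a small nuclear RNA gene include both summits of the gaps before egg-5, F38E11.9 and snr-4, so they are not 7 separate places.

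Within 50 bp of the summit, words were counted on either strand. GAGAGA was in 20.4% of members, in 4.86% of equally long windows centred 300 bp away, in 33.5% of the other autosomal peaks and in 4.80% of windows at the middle of the 2919 tandem gaps over 200 bp without an optimal summit. GACGCA, chosen among 2080 words of 6 letters for its excess in the members themselves, was in 21.3%, 1.83%, 17.1% and 2.47% of them. ACGCGC, chosen in the same way, was in 18.3% of members, 1.19% of flanks and 1.95% of empty gaps. It was in 8.56% of the other autosomal peaks, 16.7% of those with 5′ ends on both strands and 12.6% of those with an end on 1 strand. Being chosen on the members, these 2 shares carry no support of their own against the flanks.

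The palindromic E-box CACGTG was in 3.49% of members, 2.29% of flanks, 4.44% of other peaks and 1.47% of empty gaps. TATAAA was in 7.16% of members, 12.1% of flanks, 5.204% of other peaks and 14.3% of empty gaps. TTTGAA was in 26.4% of members and 28.0% of flanks, and in the other peaks in 15.5%. AATAAA, the usual signal for 3′ end formation, was in 25.7% of members, 31.0% of flanks and 15.1% of other peaks, and TTTTTT in 29.4%, 39.3% and 29.2%. The GC share within 50 bp had a median of 43.6% in members and in other autosomal peaks, 34.7% in the flanks and 32.7% in empty gaps, and its part in the word counts was not tested.

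A pair of words chosen after the data were seen differed in how they followed the signal. GGCGCA was in 12.8% of members, 2.11% of flanks, 6.43% of other peaks and 14.4% of those with 5′ ends on both strands. By steps of 20 in the signal percentile its share in members was 3.03%, 2.30%, 5.45%, 14.3% and 28.2% from low to high. The longer GAGACGCAG, which contains GACGCA, was in 12.1% of members, 0.0917% of flanks, 11.0% of other peaks and 5.29% of those with 5′ ends on both strands, and in 9.09% of the lowest step and 12.7% of the highest. The shorter GACGCA was in 12.1%, 14.9%, 20.9%, 21.4% and 29.6% of members from the lowest step to the highest. GAGAGA was in 13.6%, 24.1%, 20%, 22.1% and 19.7%, without a steady rise. Only 4 members held both GGCGCA and GAGACGCAG, and C34C12.8 is shown above. A match is not a site, and windows of overlapping peaks share bases.

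The last bases of the gap, right before the annotated 5′ end, were read for the splice acceptor. AG stood there in 275 of the 535 gaps with a member (51.4%, interval 47.2 to 55.6%) and in 29.5% of the gaps without one. TTTCAG was within the last 10 bp in 27.9% and 11.99%. In gaps over 200 and up to 400 bp AG was at 53.1% against 22.8%, up to 600 bp at 59.1% against 18.6%, and up to 800 bp at 56.8% against 18.8%. In gaps over 800 bp the contrast was smaller, with AG at 36.8% (26.9 to 48.1%) against 19.9% and TTTCAG at 15.8% against 10.8%. In gaps up to 100 bp AG was at 28.6% of only 7 gaps against 43.2%. In gaps over 100 and up to 200 bp, the spacing common inside operons, the order was the other way, with 36.6% of 41 gaps (23.6 to 51.9%) against 47.6%, and the intervals overlap. An annotated 5′ end right behind AG is where a trans-spliced RNA would start, and the annotation was not checked against RNA here.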

How the data were processed

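The deposited files are narrowPeak lists in ce11 for each replicate, for both pooled and for the optimal set, made by the authors with a control library, per the file headers and labels. The pooled list is labelled as peaks and background, the input for the threshold on reproducibility. No aligner or peak caller is named in the labels. Signal values are the authors' own as deposited and served only for ranks inside 1 list. The deposited −log10 q-value is 4.071 in every optimal peak and ranked nothing. The optimal list equals the 5692 pooled peaks with the highest signal. No counts are in these lists, so depth is unknown.

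Tandem gaps are stretches of 1 to 1000 bp between the merged spans of protein-coding genes of 1 strand (Ensembl release 115, WBcel235, which has the ce11 chromosome lengths). Shares carry 95% Wilson intervals. Replicate values use each replicate's 5692 highest-signal peaks. With 1 group of 2 replicates no test between conditions was possible. Both replicates are of the same strain, so their spread mixes biological and technical differences.

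A member matched a replicate within 100 bp. Words were read within 50 bp of the summit. Genes were named by rule: the 20 highest and 5 lowest members, up to 4 downstream and 2 upstream genes of each list, the 5 shortest gaps and up to 5 gaps with more than 1 member. Genes, runs and non-coding genes named outside this rule, the split by a close next gene and the words said to be chosen later were picked after their values were seen. Members and lists were chosen with earlier results of these data known. Gene lists are sets of gene symbols. The assignment of summits to gaps was tested on simulated data. Alternatives were other gap limits, windows, gene ends, signal limits, matching distances, pooled regions and each replicate alone. Python 3.11.15, numpy 2.4.6, scipy 1.17.1 and matplotlib 3.10.9 were used.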

Additional observations from a re-analysis of the deposited data

How the results depend on the processing

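The number of members was 299 with a gap limit of 500 bp, 805 with 2000 bp and 334 with the upper 50% of the peaks by signal. The share of tandem gaps with a member was 9.03% at 500 bp, 10.65% at 2000 bp, 10.5% where 5′ ends on both strands counted within 250 bp, 6.34% with that upper 50%, and 9.77 to 10.02% with 1 replicate left out. The median signal percentile was 76.65 with that upper 50%, by construction. It was 64.29 with replicate 2 left out and 56.49 with replicate 1 left out. The median distance to the downstream 5′ end was 139 bp at 500 bp, 224 bp at 2000 bp, 190.5 bp with that upper 50%, and 177.5 to 183.5 bp with 1 replicate left out. The share matched in both replicates was 83.9% within 50 bp and 99.45% within 200 bp. The pooled regions are far more numerous and are labelled as peaks and background. With all of them the shares by length from short to long gaps were 4.51%, 10.7%, 24.8%, 27.7%, 25.3% and 24.65%, so the fall beyond 400 bp depends on the signal limit. With 1 replicate left out they were 0.516 to 0.644%, 3.78 to 3.78%, 15.2 to 16.3%, 14.4 to 14.9%, 11.6 to 11.6% and 11.7 to 12.02%. The share ahead of a close next gene was 43.4% with a next gap of up to 150 bp, 32.8% with up to 300 bp, 49.1% with all pooled regions, and 37.3 to 37.6% with 1 replicate left out. Elsewhere it was 23.5% with all pooled regions and 11.2 to 11.7% with 1 replicate left out. GAGAGA was in 30.6% and GACGCA in 24.95% of members within 100 bp of the summit.

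No paired analysis was possible because the 2 replicates form 1 group and no result comes from a test. Depth is unknown, so a gap without a summit is not shown to be without the protein.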
